A study of Homo sapiens with 2 samples.

Results

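The annexins are a family of proteins that bind negatively charged membrane lipids when calcium rises, and the genes described here are ANXA1, ANXA2, ANXA3, ANXA4, ANXA5, ANXA6, ANXA7, ANXA9, ANXA10 and ANXA11. These 10 genes were taken by name from the gene symbols of the array platform, brought to current names, and they account for 11 of the 24267 probes and 10 of the 12445 genes named on the array. The family was selected on the ratio of miR-210 over ncRNA intensity of ANXA10, already known to be among the most raised genes in these same data, so that ratio is a description and supports nothing by itself. One sample of KYSE-170 cells, an established human oesophageal squamous carcinoma cell line, was transfected with an oligoribonucleotide for miR-210, and 1 sample of the same line was transfected with an oligoribonucleotide called ncRNA, whose sequence the labels do not give. Both arms shared the cell line, the transfection reagent and the medium with serum, while no source used here gives the dose or the time after transfection. Cy5-labelled cRNA made from 500 ng of total RNA of each sample was hybridised to a 1-colour oligonucleotide array. With 1 array per arm, no difference below has a replicate check and no p-value was computed.

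An annexin consists of a conserved core of repeats that carries the calcium and lipid binding sites and a variable N-terminal tail, to which partners such as S100 proteins bind. Through this calcium switch annexins take part in membrane trafficking, in the sealing of torn plasma membranes, in the resolution of inflammation and in plasminogen activation at the cell surface. Squamous epithelia are known for abundant annexin A1 and annexin A2. miR-210 is a microRNA induced by hypoxia that lowers the transcripts it pairs with through its seed.

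The sequences of both arms of the MIR210 hairpin are shown because miR-210 is the only agent that differs by name between the arrays. The labels do not say which arm was transfected. Both lie on the minus strand of chromosome 11, at chr11:568112-568133 and chr11:568150-568171 of GRCh38.p14, and come from RefSeq, with the seed (bases 2 to 8) in capitals:
hsa-miR-210-3p: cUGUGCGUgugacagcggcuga
hsa-miR-210-5p: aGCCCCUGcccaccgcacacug

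The array carrying the miR-210 sample had a median intensity of 36, and the ncRNA array a median of 39. An intensity is the brightness of a probe in scanner units, background having been subtracted before deposit. Differences are log2 ratios, miR-210 over ncRNA, taken once quantile normalization had given both arrays the same distribution. Probes were kept by the mean of their 2 normalized log2 intensities. The cut stood at an intensity of 37.5, the median of this mean level over the probes above 0 on both arrays. Where a gene had several kept probes, the brightest was used. This left 6684 genes, whose median log2 ratio was 0.01 and whose SD was 0.54. Over the 251 genes with at least 2 kept probes, single probes scattered about their gene with a SD of 0.44 in log2 ratio. This SD, called the spread between probes below, is the only error the arrays hold, and it leaves out differences between cultures. FGFRL1, a reported miR-210 target and the gene for which the study is known, read 21 on the miR-210 array and 277 on the ncRNA array, a log2 ratio of -3.63. The value of 21 lies under the median of its array. Adding an offset of 50 to every value gave -2.15, so the size of this ratio is uncertain. The squamous keratin KRT17 read 2736 with miR-210 and 1541 with ncRNA, and KRT5 read 496 and 290. Of the 16 squamous markers measured, 14 were above the level filter, as were 6684 of the 12445 genes named on the array. Passing it does not by itself show expression. KRT4 passed at 49 with miR-210 and 97 with ncRNA, and the leukocyte marker CD79A passed at 126 and 133. TP63, the master regulator of squamous lineage, was under that filter at 22 with miR-210 and 57 with ncRNA.

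Of the 10 annexins, 8 passed the level filter, with 5 log2 ratios above 0 and 3 under it. Among all genes kept, 3358 ratios were above 0 and 3250 under it. Of these 8, ANXA10 was the only one at least 2-fold apart, in the higher direction. ANXA6 and ANXA9, under the filter, were at least 2-fold lower with miR-210, as were 11.3% of the named genes represented only there. Of all genes kept 6.21% were that far apart, 3.02% higher and 3.19% lower with miR-210, a background from which nothing is read because ANXA10 brought the family into view. The median of the 8 log2 ratios was 0.08 and without ANXA10 it was 0.01, beside 0.01 for all genes kept. The median turned to -0.18 without normalization between arrays, where the median of all genes was -0.12, and to -0.10 with arrays centred on their medians, so no direction can be given for the family. ANXA4, ANXA5, ANXA7 and ANXA10, 4 of the 8, had ratios larger in size than the spread between probes, a size reached by 34.8% of all genes kept. Without normalization, and with arrays centred on their medians, 5 passed that size, ANXA1 and ANXA11 joining and ANXA5 dropping out. Without ANXA10, the remaining 7 ratios ran from -0.74 to 0.70 with a SD of 0.50.

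**Figure D1:**
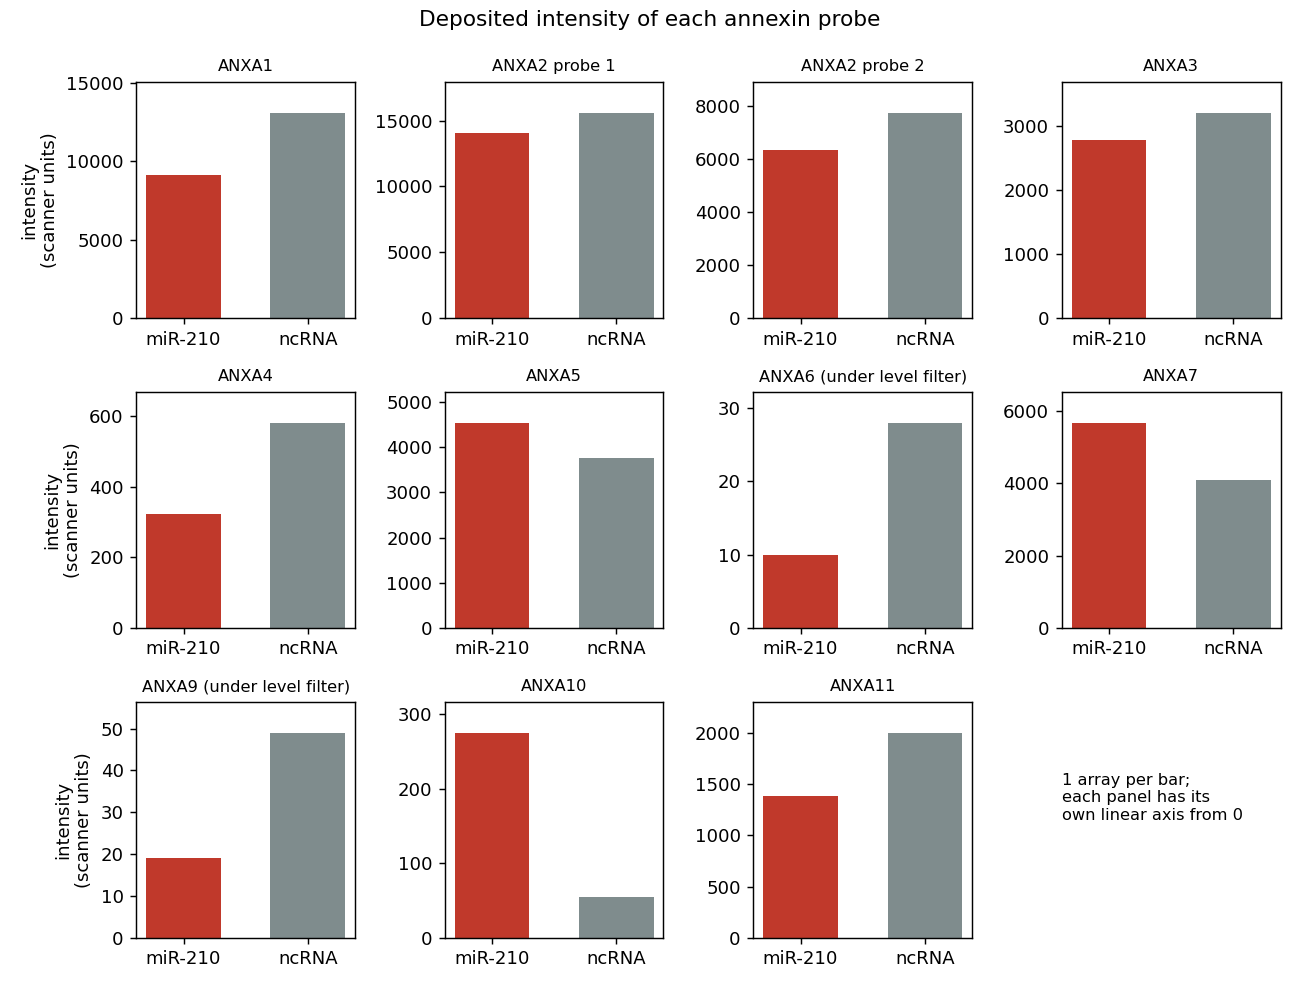
Deposited intensity in scanner units of each of the 11 annexin probes on the miR-210 array (red, left) and the ncRNA array (grey, right), each panel on its own linear axis starting at 0 and each bar 1 array. The ANXA10 bars stand at 275 with miR-210 and 55 with ncRNA, while the bars of ANXA2 and ANXA3 are close to level.

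ANXA10 and ANXA9 are the atypical members, whose repeats have lost most of the calcium binding sites. ANXA10 is best known from gastric mucosa. Its single probe read 275 on the miR-210 array and 55 on the ncRNA array, a 5.0-fold difference as deposited. After normalization the log2 ratio was 2.44, a 5.43-fold higher value with miR-210. On the ncRNA array markers of other cell types read close to or above ANXA10, among them FAP at 52, KDR at 66 and CD79A at 133, so 55 is not shown to exceed background and the size of the ratio is uncertain. Its ratio ranked 3 from the highest of the 6684 genes, 5 with an offset of 50 and 40 of 12405 with no level filter, and the gap to the next annexin, ANXA7, was 1.74 on the log2 scale. Adding an offset of 10 to every value gave 2.24 and an offset of 50 gave 1.71, so the size depends on how background near the ncRNA value is treated. No second ANXA10 probe was on the array to check it, and in bulk RNA more cells carrying a transcript cannot be told apart from more transcript per cell. ANXA9 read 19 with miR-210 and 49 with ncRNA, which put its mean level under the filter. Its log2 ratio was -1.28, opposite in sign to that of ANXA10. Among the 5721 named genes represented only under the filter, 11.3% were at least 2-fold lower with miR-210.

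The genes of like ratio to ANXA10, over a single pair of arrays, were IL1RL1 and SNRPC directly above it and FAM135A, VKORC1L1 and IL11 directly below it. Their log2 ratios were 3.62 and 2.60 above, and 2.14, 2.08 and 2.08 below. On the ncRNA array IL1RL1 read 20, FAM135A 46 at its kept probe and IL11 38. An offset of 50 lowered their log2 ratios to 2.06, 1.38 and 1.24, so these sizes are uncertain too. SNRPC and VKORC1L1 read 654 and 257 with ncRNA, and the same offset gave 2.51 and 1.89. FAM135A had a further probe under the level filter, at 23 with miR-210 and 19 with ncRNA, with a log2 ratio of 0.35.

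**Figure D2:**
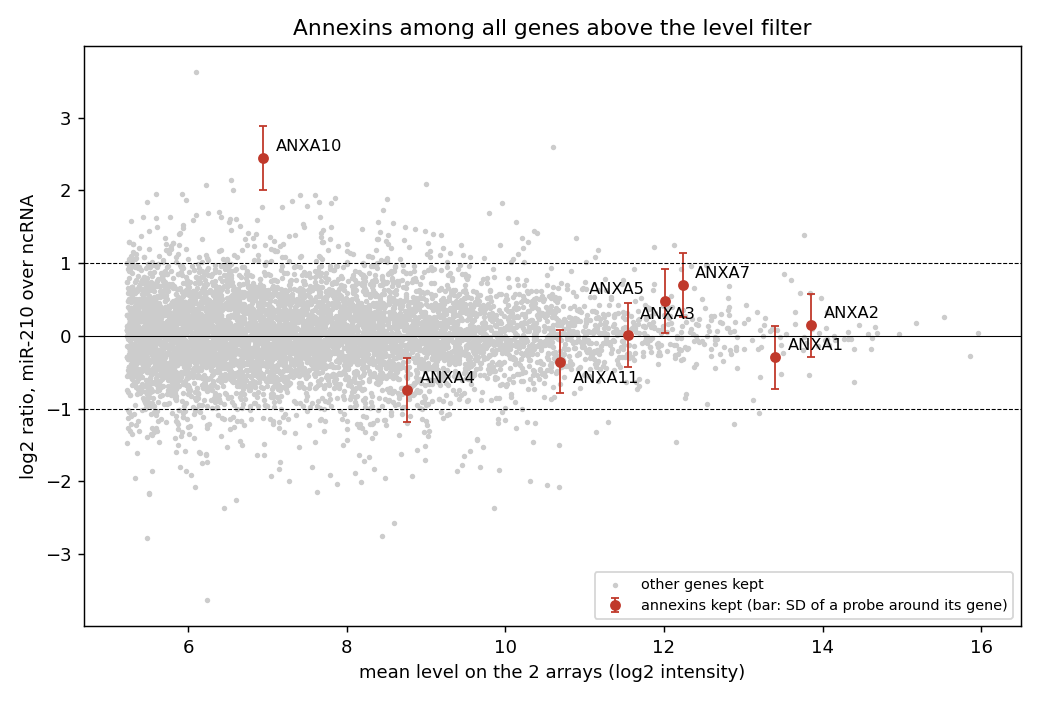
Log2 ratio, miR-210 over ncRNA, on the vertical axis against the mean log2 intensity on both arrays (horizontal) for the 6684 genes kept, with the 8 annexins kept in red. Bars on the annexins are the spread between probes (SD, 0.44), and dashed lines mark a 2-fold difference. ANXA10 stands at 2.44, and the other annexins lie between -0.74 and 0.70.

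The promoter of ANXA10 is shown as that of the annexin with the highest ratio, beside those of ANXA1, the member most like it in sequence composition, and ANXA7, which had the next highest ratio. Each runs 250 bases before to 50 after the gene's start, from RefSeq (GRCh38.p14), and the 10 members matched 14 such promoters by symbol. The windows are chr4:168092287-168092586 on the plus strand for ANXA10, chr9:73151615-73151914 on the plus strand for ANXA1 and chr10:73414009-73414308 on the minus strand for ANXA7. Capitals mark the motifs searched on both strands, with no overlaps in these windows. TATAAA is the TATA box, CCAAT the CAAT box, and ACGTG a form of the hypoxia response element core. TGANTCA is the AP-1 site with any middle base allowed:
ANXA10: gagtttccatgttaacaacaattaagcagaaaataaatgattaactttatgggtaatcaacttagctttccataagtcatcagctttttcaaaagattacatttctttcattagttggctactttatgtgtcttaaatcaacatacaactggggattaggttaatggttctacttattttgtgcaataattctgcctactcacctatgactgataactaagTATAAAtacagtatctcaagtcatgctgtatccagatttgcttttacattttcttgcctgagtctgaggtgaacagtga
ANXA1: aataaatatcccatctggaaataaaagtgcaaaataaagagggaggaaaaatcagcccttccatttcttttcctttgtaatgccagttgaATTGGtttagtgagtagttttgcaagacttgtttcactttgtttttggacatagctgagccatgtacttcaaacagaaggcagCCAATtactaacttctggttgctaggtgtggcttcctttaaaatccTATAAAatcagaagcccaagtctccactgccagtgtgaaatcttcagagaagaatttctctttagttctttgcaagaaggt
ANXA7: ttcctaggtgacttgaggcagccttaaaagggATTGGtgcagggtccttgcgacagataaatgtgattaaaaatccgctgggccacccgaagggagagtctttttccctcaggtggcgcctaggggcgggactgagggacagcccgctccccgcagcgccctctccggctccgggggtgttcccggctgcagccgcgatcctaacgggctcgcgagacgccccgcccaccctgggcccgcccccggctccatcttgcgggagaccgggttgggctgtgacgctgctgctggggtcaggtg

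The ANXA10 window was 32.7% G and C and held no CG step, and that of ANXA1 was 37.7% G and C, also with none. The median over 35116 promoters of the same length was 58.7%, and 3.96% of them held no CG step. The ANXA7 window was 66.0% G and C with 23 CG steps, and those of ANXA4 and ANXA5 reached 78.0% and 76.3%. TATAAA began 29 bases before the start of ANXA10, 31 before those of ANXA1 and ANXA2 and 61 before 1 of the ANXA11 starts. It was found in 11.5% of all promoters, counted anywhere in the window and on either strand, so this share is not one for these positions. The motif ACGTG was found in promoters of ANXA4, ANXA6 and ANXA9 and in 21.4% of all promoters, CCAAT in those of ANXA1, ANXA6, ANXA7 and ANXA11 and in 34.6%, and TGANTCA in that of ANXA2 and in 7.71%. These matches describe the letters only. ANXA10 and ANXA1 shared the low G and C content and the TATAAA, and their log2 ratios were 2.44 and -0.30.

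ANXA2 and ANXA1 are the annexins of the cell surface and of inflammation. Annexin A2 forms a complex with S100A10 that binds plasminogen and its activator, and annexin A1 is the glucocorticoid-regulated ligand of formyl peptide receptors. The brighter ANXA2 probe read 14022 with miR-210 and 15566 with ncRNA, and its log2 ratio was 0.14. The other ANXA2 probe read 6338 with miR-210 and 7721 with ncRNA, with a ratio of -0.05, so the probes differed by 0.19, less than the spread between probes. The brighter probe's ratio turned to -0.15 without normalization and -0.07 with arrays centred on their medians. ANXA1 read 9113 with miR-210 and 13090 with ncRNA, a log2 ratio of -0.30 that is smaller than the spread between probes. It ranged from -0.52 to -0.28 over the alternatives, and exceeded that spread without normalization and with arrays centred on their medians.

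ANXA7 and ANXA11 are the members with long N-terminal tails. Annexin A7, or synexin, promotes the fusion of secretory granules, and annexin A11 tethers RNA granules to lysosomes and acts at the midbody. ANXA7 read 5667 on the miR-210 array and 4077 on the ncRNA array, 1.62-fold higher with miR-210 and a log2 ratio of 0.70. ANXA11 read 1385 with miR-210 and 2003 with ncRNA, a log2 ratio of -0.36 and so opposite in sign to ANXA7. ANXA7 ranked 545 from the highest of the genes kept, and ANXA11 ranked 1405 from the lowest. Across the alternatives ANXA7 stayed between 0.48 and 0.70, and ANXA11 between -0.53 and -0.35.

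ANXA4, ANXA5, ANXA6 and ANXA3 are annexins whose proteins assemble on membranes in a calcium-dependent way. ANXA4, a binder of secretory and plasma membranes, had the lowest ratio of the annexins kept. Its probe read 322 with miR-210 and 580 with ncRNA, 1.68-fold lower with miR-210 and a log2 ratio of -0.74. It ranked 456 from the lowest and stayed between -0.85 and -0.67 over the alternatives. ANXA5, the phosphatidylserine binder used to stain apoptotic cells, read 4542 with miR-210 and 3754 with ncRNA, a log2 ratio of 0.48. That ratio was 0.27 without normalization and 0.35 with arrays centred on their medians, both within the spread between probes. ANXA3, known from neutrophil granules, read 2776 with miR-210 and 3197 with ncRNA, a log2 ratio of 0.01. It was under 0 without normalization, with arrays centred on their medians and after loess on level, reaching -0.20. ANXA6, whose core is duplicated, read 10 with miR-210 and 28 with ncRNA and was under the level filter, with a log2 ratio of -1.46. Both values lay under the medians of their arrays.

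The annexins are grouped next by the intensity of their probes. The 6 with a mean intensity of 1000 or more (ANXA1, ANXA2, ANXA3, ANXA5, ANXA7 and ANXA11) all had ratios under 2-fold in size, where 4.01% of the 822 genes kept at such levels were at least 2-fold apart. ANXA4 and ANXA10 were the 2 kept members of lower intensity, where the share was 6.52% of 5862 genes. ANXA6 and ANXA9, under the filter, were both at least 2-fold apart, as were 23.1% of the named genes there. Intensities of different probes depend on the probe and are not compared as expression levels.

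**Figure D3:**
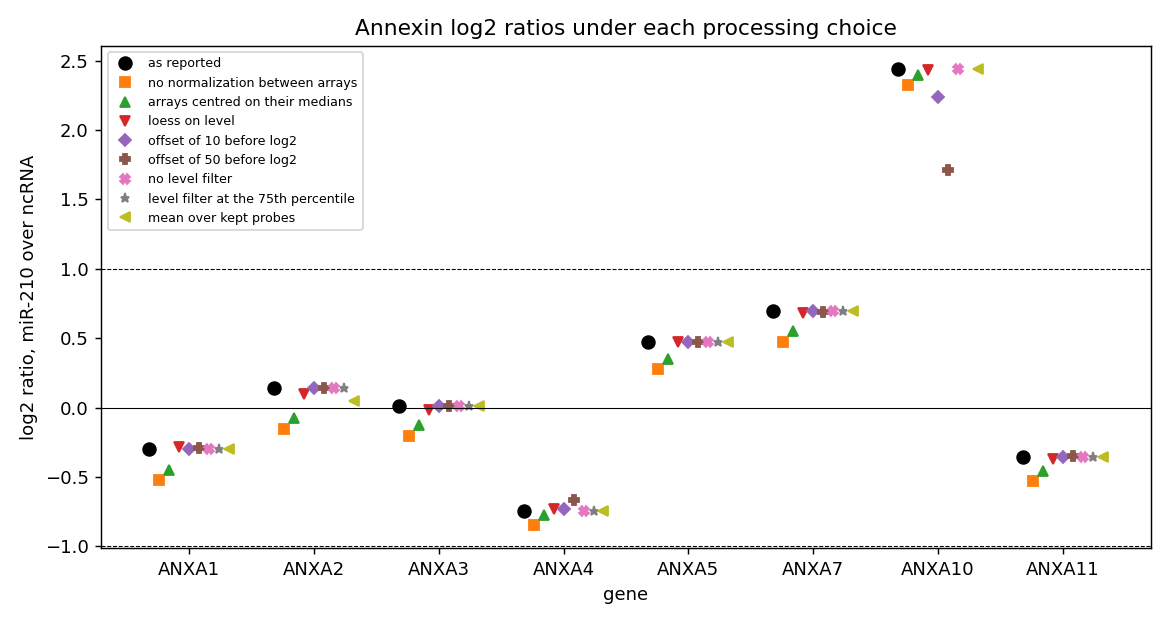
Log2 ratio of miR-210 over ncRNA (vertical) for the 8 annexins kept, as reported and under each of 8 alternative processing choices (symbols); the dashed lines mark a 2-fold difference. ANXA10 stands highest under each choice that retains it, between 1.71 and 2.44, while ANXA2 and ANXA3 fall on both sides of 0.

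Of the other annexins, ANXA8 read 330 with miR-210 and 349 with ncRNA, a log2 ratio of 0.03 that was under 0 without normalization and with arrays centred on their medians. This probe may also read the near-identical ANXA8L1. ANXA13, an intestinal annexin, read 17 with miR-210 and 9 with ncRNA and was under the filter.

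Calcium-binding partners of annexins gave 7 genes above the filter of 10 measured, 3 with ratios above 0 and 4 under it, with a median of -0.05 beside 0.01 for all genes kept. SRI encodes sorcin, a partner of annexin A7. It read 887 with miR-210 and 449 with ncRNA, 2.19-fold higher with miR-210, and 1.98-fold on the deposited scale. S100A10, the partner of annexin A2, read 9902 with miR-210 and 9879 with ncRNA, a log2 ratio of 0.25, within the spread between probes. That ratio was 0.003 without normalization and 0.08 with arrays centred on their medians. S100A12 and S100A4 stood at -0.54 and -0.28. S100A12 read 37 with miR-210 and 58 with ncRNA, and an offset of 50 changed its ratio to -0.26. S100A11, the partner of annexin A1, was named for this role after its values were seen, and its log2 ratio was -0.06 with intensities of 14579 with miR-210 and 18776 with ncRNA. The 3 formyl peptide receptor genes that annexin A1 acts on were all under the filter, with FPR1, FPR2 and FPR3 at 17, 32 and 13 with miR-210 and 11, 27 and 11 with ncRNA. Of the phospholipases A2, enzymes that annexins were first described as inhibiting, PLA2G4B alone of 3 genes measured had a probe above the filter, at 108 with miR-210 and 155 with ncRNA and a log2 ratio of -0.41.

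The plasminogen system, in which the complex of annexin A2 and S100A10 acts as a receptor, gave 6 genes kept of 8 measured. Ratios were above 0 for 4 and under it for 2, where 50.2% of all genes kept had ratios above 0. Their median was 0.04, beside 0.01 for all genes kept. It turned to -0.11 without normalization, where the median of all genes was -0.12. PLAUR, the urokinase receptor, read 257 with miR-210 and 82 with ncRNA, 3.41-fold higher with miR-210, and an offset of 50 lowered its log2 ratio of 1.77 to 1.31. SERPINB2, the type 2 plasminogen activator inhibitor, stood at 0.49. It read 64 with miR-210 and 49 with ncRNA, and an offset of 50 lowered its ratio to 0.26. HMGB1 and the plasminogen-binding enolase ENO1 stood at 0.08 and -0.03. HMGB1 was at -0.14 without normalization and -0.06 with arrays centred on their medians. PLAU, the ligand of PLAUR, and PLG were under the filter.

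Genes of plasma membrane repair, a process that annexins serve by capping torn membrane, had a median log2 ratio of -0.45, beside 0.01 for all genes kept. Of 13 measured, 11 were kept, 7 with ratios under 0 and 4 above it, and 1 was at least 2-fold apart. Among all genes kept, 50.2% of ratios were above 0 and 6.21% were at least 2-fold apart. The list was chosen with earlier results of these data known, and its median was not tested. The gene at least 2-fold apart was CAV1, which encodes the caveolar coat protein caveolin. It read 612 with miR-210 and 2671 with ncRNA, 3.98-fold lower with miR-210. The ESCRT-III genes CHMP4A and CHMP4B, whose products pinch off damaged membrane, stood at -0.86 each. CHMP4A read 215 with miR-210 and 423 with ncRNA, and CHMP4B 688 with miR-210 and 1388 with ncRNA. PDCD6IP, the ESCRT adaptor ALIX, stood at 0.82 at its brighter probe and -0.55 at its other kept probe, so its direction is not settled. The median of the list stayed between -0.56 and -0.37 over the alternatives.

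**Figure D4:**
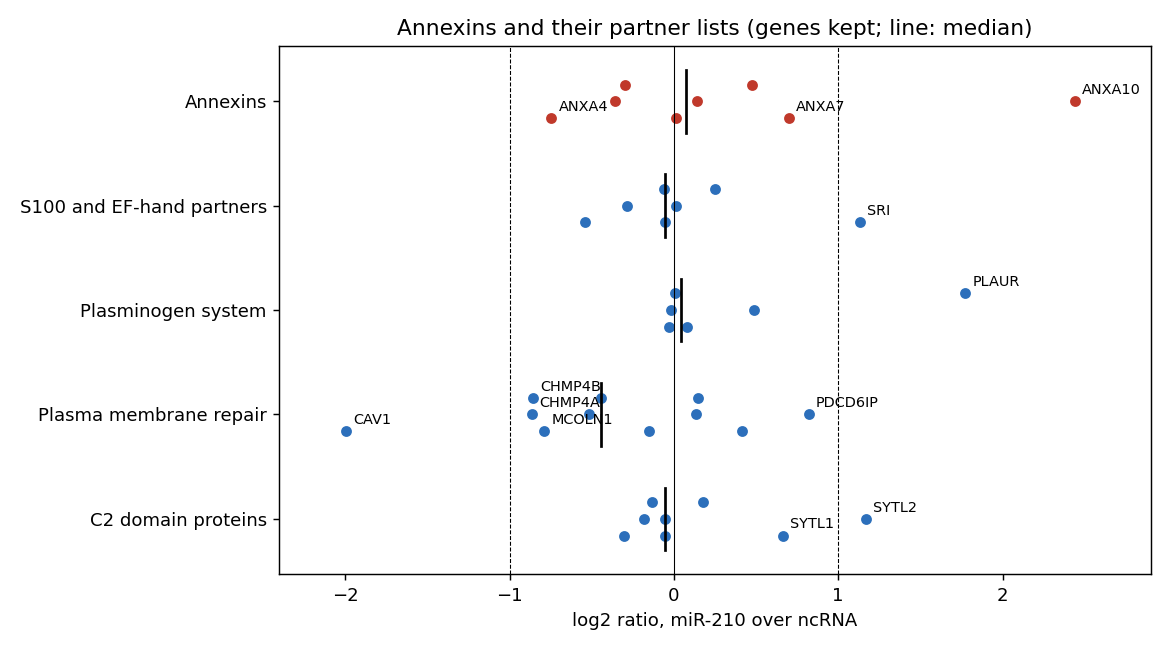
Log2 ratio of miR-210 over ncRNA (horizontal) of each gene kept among the annexins (red) and 4 lists of related genes (blue), with the median of each list as a vertical line and dashed lines at a 2-fold difference; genes at least 0.6 in size are named. ANXA10, PLAUR, SYTL2 and SRI lie past 1, and CAV1 at -1.99.

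Because ANXA10 is a gastric gene, markers of gastric cells were read beside it. Of 12 measured, 2 passed the level filter, AGR2 at -0.17 and GATA6 at 0.47. The summed intensity of all 12 was 1152 on the miR-210 array and 1279 on the ncRNA array. AGR2, at 710 with miR-210 and 886 with ncRNA, and GATA6, at 262 and 206, supplied most of these sums. The 10 under the filter read between 5 and 31 with miR-210 and between 9 and 36 with ncRNA, all under the medians of their arrays, with 5 log2 ratios above 0 and 5 under it. PGC, the gastric protease precursor pepsinogen C, had the largest of these ratios, at 23 with miR-210 and 10 with ncRNA, and GKN1, a gastrokine of gastric surface cells, the lowest, at 5 with miR-210 and 9 with ncRNA. Among squamous markers 9 of 14 kept had ratios above 0, with a median of 0.22, beside 50.2% and 0.01 for all genes kept. That median was 0.11 without normalization. Of the 14, 1 was at least 2-fold apart, as were 6.21% of all genes kept. KRT17 stood at 1.01, KRT5 at 0.90, KRT4 at -0.89 and PERP at -0.80. Leukocyte, fibroblast and endothelial markers were kept in 1 of 8, 3 of 9 and 3 of 6 cases. Their summed intensities were 238, 381 and 356 with miR-210 and 227, 412 and 402 with ncRNA, and the leukocyte integrin ITGAM read 0 on the miR-210 array. Single genes weighed heavily in these sums. CD79A read 126 with miR-210 and 133 with ncRNA, and DCN 181 and 183. The largest ratios among the markers kept in these 3 lists were 0.02 for CD79A, 0.10 for DCN and -0.76 for KDR, of which the first and second were under 0 without normalization.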

How the data were processed

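Total RNA of 2 KYSE-170 samples was measured on 1-colour arrays, 1 sample per arm, grouped by their titles. The deposited table holds intensities on a linear scale for 24267 probes, whole numbers from -8 to 65496. No source used here names the scanner, the background correction or any normalization by the authors, and the values under 0 require that a background had been subtracted. Probes with an intensity over 65000 numbered 1 on the miR-210 array and 5 on the ncRNA array, none of them an annexin.

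With Python 3.11.15, numpy 2.4.6, pandas 2.3.3 and statsmodels 0.14.6, the 24177 probes above 0 on both arrays were taken to log2 and quantile normalized, and 12090 reached the median level. Platform symbols, present for 13395 probes, were updated through the RefSeq gene table of GRCh38.p14, which changed 2285 of 12474 symbols. Probe positions are left out, since the sources used here name no build for the array. Named genes were all members, for each list the 4 kept genes of largest absolute ratio and any at least 2-fold apart, up to 3 genes on either side of ANXA10 by rank, and FGFRL1. Genes named outside this rule were chosen after their values were seen. They were ANXA13, FPR1, FPR2, FPR3, PLAU, PLG, TP63, ITGAM, PGC, GKN1, S100A11 and MYOF, most of them under the level filter. The family and the lists were chosen with earlier results of these data known. The procedure was tested on simulated data. Their noise was the same at every level and their changes lay in brighter probes, so the test does not cover values near background. Alternatives changed the normalization, an offset, the level filter and the treatment of several probes. The number of arrays limits the precision.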

Additional observations from a re-analysis of the deposited data

How the results depend on the processing

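Each arm had 1 array, so neither cultures nor arrays give an error, and a shift was judged against the spread between probes of 0.44. Under 8 alternatives the log2 ratio of each of the 7 annexins kept beside ANXA10 moved by less than that spread. The signs of ANXA2 and ANXA3 depended on the scaling. The log2 ratio of ANXA10 was 1.71 with an offset of 50 and between 2.24 and 2.44 under the other alternatives that retained it. A filter at the 75th percentile of level instead of the median left 7 annexins; ANXA10 was left out, and so 0 annexins were at least 2-fold apart. With no level filter the count was 3, ANXA6 and ANXA9 being added to ANXA10. The family's median ranged from -0.18 to 0.08. Among 37 named genes outside the family, 9 of 278 values moved by more than the spread between probes, most of them with an offset, and 0 of those at least 2-fold apart changed sign. Of the smaller ratios, those of ANXA8, HMGB1, CD79A, ENG and DCN turned under 0 without normalization. Over all genes kept, 202 were at least 2-fold higher and 213 lower; these counts were 87 and 94 with an offset of 50, 95 and 97 with the stricter filter and 874 and 862 with none. The share of higher genes among those at least 2-fold apart was 48.7%, and 30.6% without normalization. No p-value was available, so no alternative speaks to significance. No paired analysis was possible because each arm had 1 array.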

Other observations

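Proteins that bind membranes through C2 domains, the other large class of calcium-dependent lipid binders, gave 8 genes above the level filter of 14 measured. Their log2 ratios were above 0 for 3 and under it for 5, with a median of -0.06 beside 0.01 for all genes kept. SYTL2, a synaptotagmin-like effector of RAB27 in secretory vesicle docking, read 122 with miR-210 and 58 with ncRNA, 2.25-fold higher with miR-210. Its log2 ratio of 1.17 was 0.73 with an offset of 50. SYTL1, a relative of SYTL2, stood at 0.66, with intensities of 46 with miR-210 and 31 with ncRNA. Its mean intensity of 37.7 lay just above the cut of 37.5. An offset of 50 lowered its ratio to 0.29, within the spread between probes. The copines CPNE8 and CPNE7 stood at -0.31 and -0.18. The ferlin MYOF, which acts in membrane repair, was named after its values were seen and read 2564 with miR-210 and 3252 with ncRNA, a log2 ratio of -0.13.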
